A study of Mus musculus with 6 samples.

Results

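Complement and coagulation proteins of the blood are made for the most part by hepatocytes, and 37 of their genes were followed here in mouse liver RNA, 16 of complement and 21 of coagulation and its control. The members were taken from a list of gene symbols, and every probe with a RefSeq name that belongs to a listed gene was read, which gave 47 of the 55681 probes of the array and 37 of its 37074 genes. The samples were livers of male hemizygous L1-Tg mice, which express human NPC1L1 in hepatocytes under the APOE promoter (B6;D2-Tg(APOE-NPC1L1)20Lqyu/J, backcrossed for at least 8 generations to C57BL/6J), and of male WT littermates. Per the study's methods, the mice were 6 to 12 weeks old and were fed a control fat diet, and the arrays were run to find basal differences between the genotypes. Each of the 3 L1-Tg and 3 WT arrays held RNA pooled from 2 or 3 mice, so replicate error here is the variation of pools, and nothing in the labels says whether pools of one group shared a litter. The transgenic group is a single line, and the probe for mouse Npc1l1 cannot check its label, since the transgene is human. That probe was well above background on 3 of 6 arrays and was not tested.

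Complement is a cascade of plasma proteases and binding proteins that marks and lyses foreign cells. It is started by antibodies (classical pathway), by mannose-binding lectins (lectin pathway) or by its own slow turnover (alternative pathway), all of which lead to cleavage of C3 and then to assembly of the terminal pore. Coagulation is a parallel cascade that ends in thrombin and in a fibrin clot, which antithrombin and protein C restrain and plasmin dissolves. Several of the genes, among them those of fibrinogen, are also known as acute phase genes of the liver, which IL-6 and its factors STAT3 and C/EBP regulate.

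The signal is given throughout as log2 of the processed intensity minus the 75th percentile of its array, so that 0 is the 75th percentile of all spots that are not controls. All 37 members were well above background on all 6 arrays, and none of their spots was saturated. The array 75th percentiles lay between 296.8 and 377.8 intensity units, and 53.1% to 59.2% of the spots were well above background. Markers of hepatocytes were also present, with 10 of 10 genes well above background on all arrays, as was true of 9 of 9 Kupffer cell markers on the array. All 6 arrays shared 1 slide, but each genotype had its own row of it, so that row and genotype cannot be told apart. L1-Tg array 2 stood apart from the rest in the RNA of other tissues. The summed signal of its pancreas markers was 7.21 times the WT mean, against 1.03 to 1.07 times on the other L1-Tg arrays, and that of its erythroid markers was 1.97 times the WT mean. Results are therefore also given without that array where it matters, and its part in them was not tested.

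The promoters of the 3 fibrinogen genes are shown because these genes lie side by side in the genome, with no coding gene between them. Their log2 differences (L1-Tg minus WT) were -0.43 for Fga, 0.04 for Fgb and 0.07 for Fgg, and the limma intervals of all 3 overlapped. For Fga the difference was -0.09 without L1-Tg array 1, and its dimmer probe gave 0.20. The genes were thus not shown to differ, and any part of the promoters in these values was not tested. Each sequence is the 160 bases before the annotated start of the gene in RefSeq (GRCm38.p6), 5′ to 3′ on the strand of the gene, with matches to the C/EBP letters TTGCNNAA on either strand in capitals. C/EBP proteins are transcription factors of hepatocytes.
Fga, chr3:83025993-83026152, plus strand: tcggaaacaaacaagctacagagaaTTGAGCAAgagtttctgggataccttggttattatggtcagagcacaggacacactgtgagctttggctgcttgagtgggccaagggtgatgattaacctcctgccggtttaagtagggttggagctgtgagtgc
Fgb, chr3:83049864-83050023, minus strand: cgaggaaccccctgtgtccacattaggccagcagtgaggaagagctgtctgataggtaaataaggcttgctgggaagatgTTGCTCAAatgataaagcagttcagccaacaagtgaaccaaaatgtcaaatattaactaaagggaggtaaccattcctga
Fgg, chr3:83007564-83007723, plus strand: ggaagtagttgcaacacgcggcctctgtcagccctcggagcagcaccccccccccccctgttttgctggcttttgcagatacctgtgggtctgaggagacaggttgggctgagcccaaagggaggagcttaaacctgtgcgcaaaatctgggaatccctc

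Over the 250 bases before the start, promoters were found for 29 of the 37 members. The C/EBP letters TTGCNNAA were present in 7 of these 29 (24.1%) and in 9.55% of 27025 promoters of all genes. For the STAT letters TTCNNNGAA the values were 6 of 29 (20.7%) and 7.18%. The HNF4 letters CAAAGTCCA and the interferon-type letters GAAANNGAA were in none of the 29, against 0.381% and 7.16% of all promoters. The letters of different motifs were counted separately even where they overlapped, and a match is a description of these bases and not a binding site. Both classes held C/EBP letters, in 2 of 11 complement and 5 of 18 coagulation promoters.

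The signals of the 37 members differed little between L1-Tg and WT liver. The L1-Tg mean was lower for 28 members (75.7%) and higher for 9. Below 0 means lower in L1-Tg in all that follows, and 57.1% of all 22339 genes tested had a difference below 0. Among the 6602 of them with a mean log2 signal over 2, as most members had, the share was 62.5%. The median log2 difference was -0.08 over the members, -0.03 over all genes tested and -0.05 over those brighter genes. On the brightest probe of each gene, differences ranged from -0.43 for Fga to 0.27 for C4bp, so that none of these exceeded 1.35-fold. A dimmer probe of F10 had a difference of -0.60. No member passed an adjusted p of 0.05 in limma with Benjamini-Hochberg adjustment over all genes tested, where 0.13% of all genes (29) passed. The smallest adjusted p of a member was 0.542. At an unadjusted p under 0.05 there were 0 higher and 1 lower member, Proc, while the shares of all genes were 4.51% higher and 4.37% lower. The limma interval (95%) of the difference lay within 0.5 log2 units of 0, that is within 1.41-fold, for 26 of 37 members and within 1 log2 unit, a 2-fold change, for 36, the exception being Fga.

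**Figure D1:**
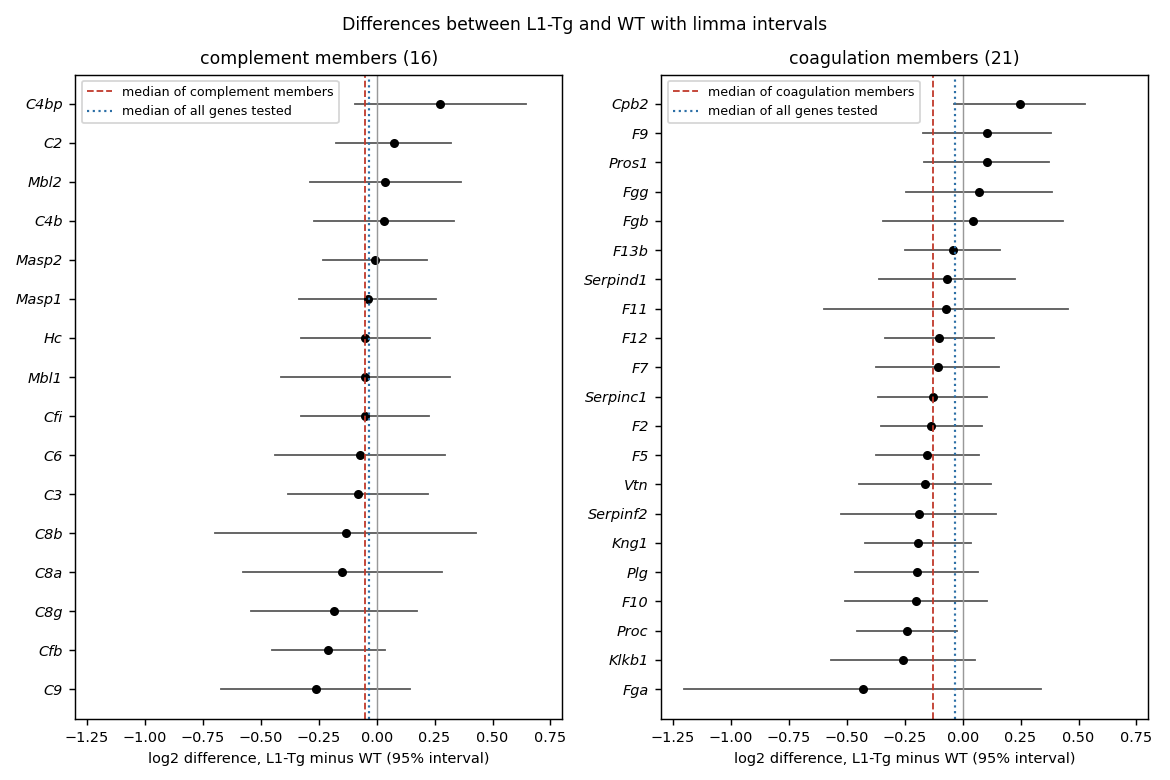
Log2 difference between L1-Tg and WT (horizontal axis, points) with its 95% limma interval (bars) for each complement member (left, 16 genes) and coagulation member (right, 21 genes), ordered by size; the dashed line is the median of the class and the dotted line the median of all 22339 genes tested. Only the interval of Proc excludes 0, and the medians are -0.05 for complement and -0.13 for coagulation.

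Complement and coagulation members were compared by their counts and medians. The median log2 difference was -0.05 over the 16 complement members, 12 of which were lower, and -0.13 over the 21 coagulation members, 16 of which were lower. Relative to the median of all genes tested, these are -0.02 and -0.10. The groups were fully separated, with every L1-Tg array below every WT array, in 3 coagulation members (F5, Proc and Kng1) and in 0 complement members, and 8.69% of all genes were separated in that direction. In the other direction 0 members were separated, against 7.21% of all genes. The difference index of the study's methods, which divides the difference of the group means on the linear scale by the sum of the 2 SDs, was under -0.7 in 8 members (1 complement, 7 coagulation), against 14.8% of all genes, and over 0.7 in 2 (C4bp and Cpb2), against 11.7%. The share of members separated in the lower direction was thus near that of all genes. Of the 6602 genes with a mean log2 signal over 2, 646 were separated lower and 395 higher. The index was under -0.7 in 1179 of these brighter genes and over 0.7 in 628. The medians of the classes were not stable to the scaling or to single arrays. The complement median was 0.06 under scaling by the array median, which moved the median of all genes from -0.03 to 0.08. It was 0.02 without L1-Tg array 1, -0.12 without L1-Tg array 2 and -0.09 without WT array 3. The coagulation median was -0.02 under scaling by the array median, where 16 of 37 members (43.2%) and 33.8% of all genes were below 0. It was -0.08 without L1-Tg array 1, -0.17 without L1-Tg array 2 and -0.17 without WT array 3. Relative to the median of all genes, the coagulation median stayed between -0.13 and -0.05 in all 16 alternatives, and the complement median lay between -0.08 and 0.05.

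**Figure D2:**
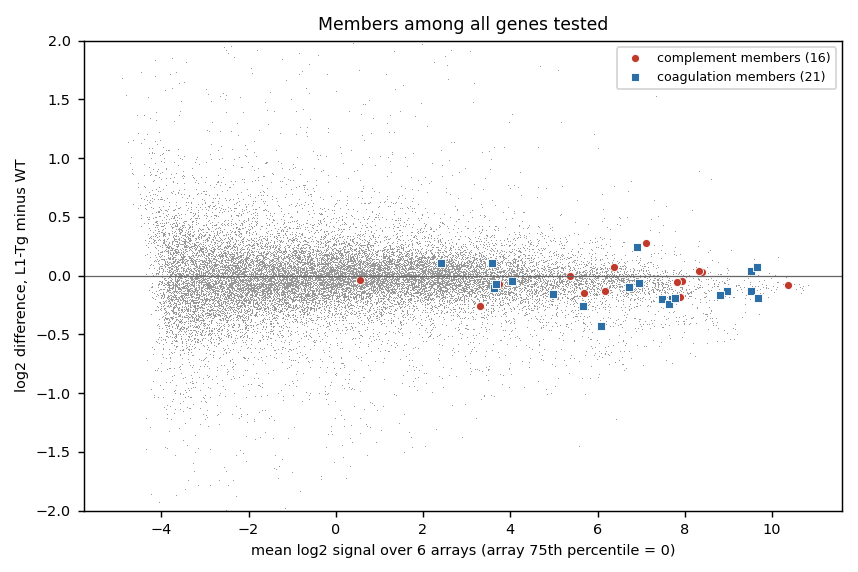
Mean log2 signal over the 6 arrays (horizontal axis) and log2 difference between L1-Tg and WT (vertical axis) for all genes tested (grey dots) with the 16 complement members (circles) and 21 coagulation members (squares); 60 genes beyond 2 log2 units in either direction lie outside the plotted range. The members lie close to 0, from -0.43 to 0.27; brightness depends on the probe, so positions along the horizontal axis do not rank genes by abundance.

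L1-Tg array 1 and WT array 1 stood at opposite ends for many members. L1-Tg array 1 was the lowest of the 6 arrays in 19 of 37 members (51.4%) and the highest in 0, whereas it was the lowest in 16% of all genes and in 24.6% of the 6602 genes with a mean log2 signal over 2. WT array 1 was the highest in 20 of 37 members (54.1%), against 26.7% of all genes and 37.3% of the brighter ones. Both classes took part, with L1-Tg array 1 lowest in 7 of 16 complement and 12 of 21 coagulation members. Hepatocyte markers were low on that array too. Of the 10 markers 9 (90%) had a difference below 0. Their median difference was -0.12, close to the -0.13 of the coagulation members and lower than the -0.05 of the complement members. The marker medians relative to the WT mean were -0.22, 0.06 and -0.23 on L1-Tg arrays 1, 2 and 3. On WT arrays 1, 2 and 3 they were 0.04, 0.03 and -0.11, so the groups overlapped. The summed signal of the markers was 0.849 to 1.04 times the WT mean on the L1-Tg arrays and 0.925 to 1.04 times on the WT arrays. The corresponding medians of the complement members were -0.23, 0.06 and -0.03 in L1-Tg and 0.09, 0.04 and -0.07 in WT, and those of the coagulation members were -0.21, -0.04 and -0.14 in L1-Tg and 0.08, -0.04 and -0.06 in WT. In bulk liver RNA fewer hepatocytes and less RNA per hepatocyte cannot be told apart, and the part of the hepatocyte share in the members' values was not tested. Without L1-Tg array 1, 21 of 37 members (56.8%) were below 0, beside 56.4% of all genes. Without L1-Tg array 2, which had the highest summed pancreas and erythroid marker signal, 32 of 37 (86.5%) were, beside 58.3% of all genes.

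**Figure D3:**
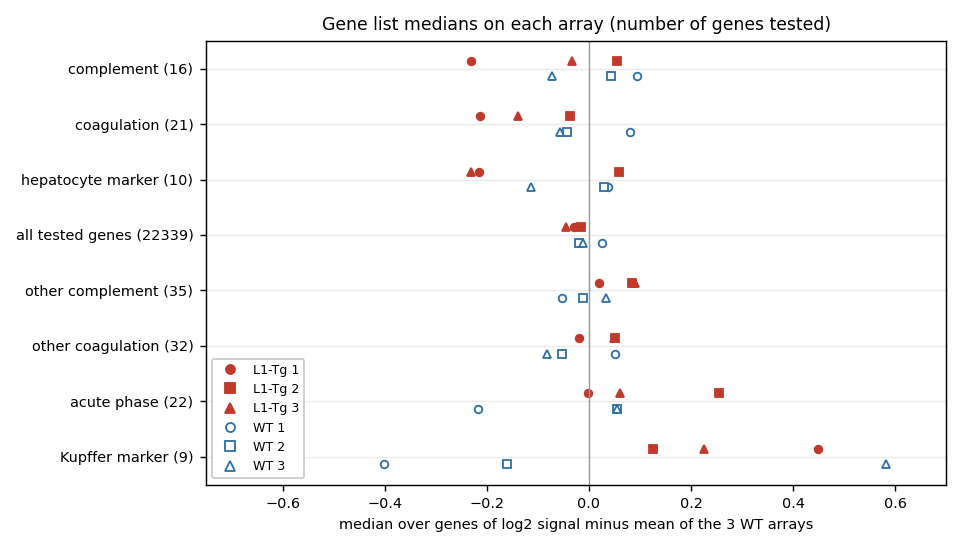
Median over the genes of each list of the log2 signal minus the mean of the 3 WT arrays (horizontal axis), one symbol per array (filled, L1-Tg; open, WT; circle, square and triangle for replicates 1, 2 and 3), with the number of genes tested beside each list. L1-Tg array 1 is lowest for complement (-0.23) and coagulation (-0.21), while for Kupffer cell markers WT array 1 is lowest (-0.40) and WT array 3 highest (0.58).

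At the centre of complement, C3, which all pathways cleave, gave 10.14, 10.54 and 10.32 on L1-Tg arrays 1, 2 and 3 and 10.42, 10.46 and 10.35 on WT arrays 1, 2 and 3. L1-Tg held both the lowest and the highest array, and the difference was -0.08 (95% interval -0.38 to 0.22). Hc, which encodes C5, the start of the terminal pathway, gave 7.85, 8.03 and 7.84 in L1-Tg and 7.87, 7.87 and 8.13 in WT. The groups overlapped, with WT array 3 the highest, and the difference was -0.05 (-0.33 to 0.23). The components upstream of C3 lay close to 0 as well. C2, the protease of the classical and lectin pathways, had a difference of 0.07 and C4b, which binds it, one of 0.03; a probe of C4b may also bind RNA of its near-identical copy C4a. The lectins Mbl1 and Mbl2 had differences of -0.05 and 0.04 and their proteases Masp1 and Masp2 of -0.04 and -0.01.

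The terminal pathway, whose proteins form the membrane pore, had all 5 of its members lower, between -0.07 and -0.26, and none separated. C9, which polymerises to line the pore, gave 2.97, 3.28 and 3.26 in L1-Tg and 3.62, 3.56 and 3.12 in WT. WT array 3 fell among the L1-Tg arrays, and the difference was -0.26 (-0.67 to 0.15, adjusted p = 0.652 in limma). C8g, the gamma chain of C8, gave 7.55, 7.94 and 7.86 in L1-Tg and 7.96, 8.15 and 7.79 in WT, a difference of -0.18 (-0.54 to 0.17, adjusted p = 0.696 in limma). For its alpha chain, C8a, the signals were 5.32, 5.83 and 5.67 in L1-Tg and 5.96, 5.79 and 5.52 in WT, with a difference of -0.15 (-0.58 to 0.28). The beta chain, C8b, whose gene lies next to C8a, gave 5.87, 6.22 and 6.21 in L1-Tg and 6.34, 6.61 and 5.75 in WT, with a difference of -0.13 (-0.70 to 0.43). In all of these the lowest L1-Tg array was array 1 and the lowest WT array was array 3, and among them only the WT arrays of C8b covered the whole L1-Tg range. C6, which joins C5b to start the pore, had a difference of -0.07, and its WT arrays covered the whole L1-Tg range too. Leaving out WT array 3 gave differences of -0.42 for C9, -0.27 for C8g, -0.27 for C8a and -0.37 for C8b, while leaving out L1-Tg array 1 gave -0.16 for C9, -0.07 for C8g and -0.0047 for C8a, and leaving out WT array 2 gave 0.05 for C8b.

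Cfb encodes factor B, the protease of the alternative pathway, and gave 7.56, 7.74 and 7.54 in L1-Tg and 7.88, 7.73 and 7.85 in WT. L1-Tg arrays 1 and 3 lay below all WT arrays and array 2 just above WT array 2, and the difference was -0.21 (-0.45 to 0.04, unadjusted p = 0.0819, adjusted p = 0.589 in limma). The regulator Cfi, a protease that degrades C3b and C4b, had a difference of -0.05. C4bp, which binds C4b and helps Cfi to degrade it, was the member with the highest difference. Its signals were 6.97, 7.34 and 7.41 in L1-Tg and 7.14, 6.87 and 6.88 in WT. L1-Tg arrays 2 and 3 lay above all WT arrays, whereas array 1 lay among them, and the difference was 0.27 (-0.09 to 0.64, adjusted p = 0.622 in limma). The difference of C4bp was above 0 in all 16 alternatives, from 0.19 to 0.41, and was highest without L1-Tg array 1, and its smallest adjusted p among them was 0.491.

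**Figure D4:**
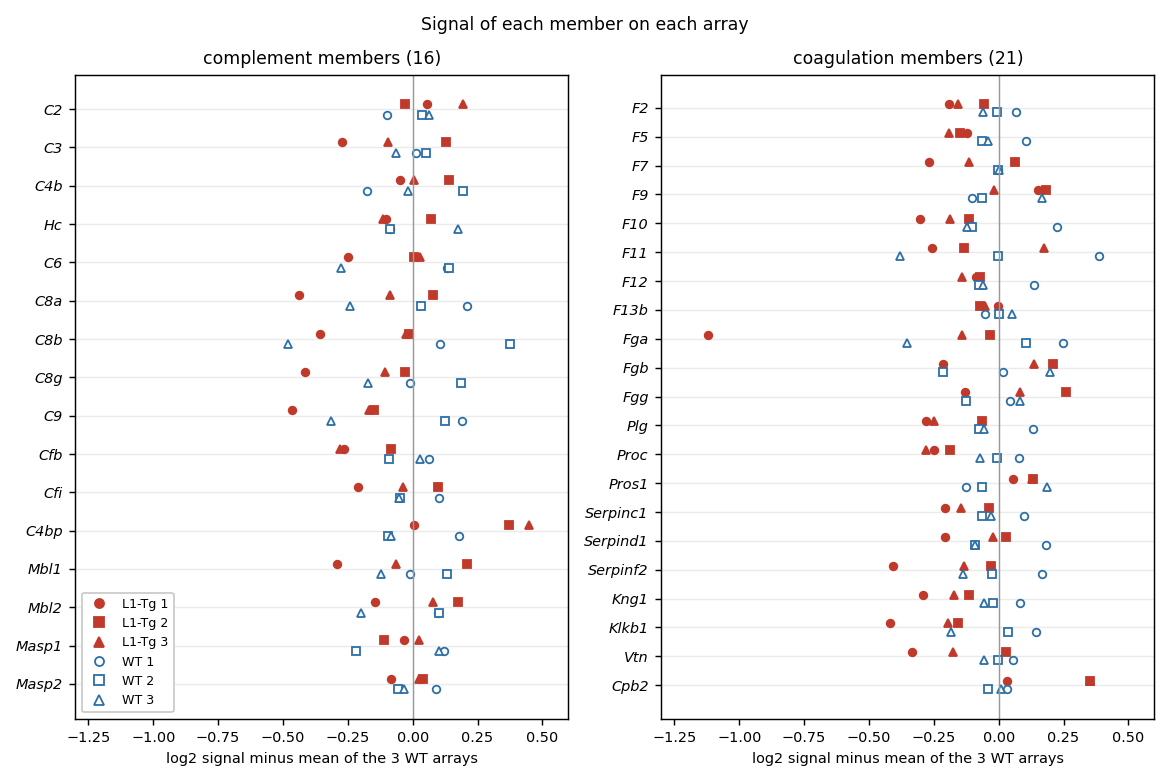
Log2 signal of each member on each array minus the mean of its 3 WT arrays (horizontal axis), complement on the left and coagulation on the right, one symbol per array (filled, L1-Tg; open, WT; circle, square and triangle for replicates 1, 2 and 3). L1-Tg array 1 (filled circles) is the lowest of the 6 arrays in 19 of 37 members. On the brightest probe of each gene the groups are separated only in F5, Proc and Kng1.

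In the coagulation class the member with the smallest p was Proc, which encodes protein C, the anticoagulant that inactivates factors V and VIII. It gave 7.50, 7.56 and 7.47 in L1-Tg and 7.83, 7.74 and 7.68 in WT. Every L1-Tg array lay below every WT array, and the difference was -0.24 with an SE of 0.09 (interval -0.46 to -0.02, unadjusted p = 0.0346, adjusted p = 0.542 in limma), or 0.847-fold. It was below 0 in all 16 alternatives, from -0.28 to -0.13, with adjusted p between 0.379 and 0.958 in limma. Pros1, its cofactor protein S, had a difference of 0.10. Serpinc1, which encodes antithrombin, gave 9.38, 9.55 and 9.44 in L1-Tg and 9.69, 9.52 and 9.56 in WT. L1-Tg array 2 lay among the WT arrays, and the difference was -0.13 (-0.36 to 0.10). Serpind1, which encodes heparin cofactor II, had a difference of -0.07.

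The vitamin K-dependent clotting factors had differences from -0.20 to 0.11. F2, which encodes prothrombin, gave 8.84, 8.97 and 8.87 in L1-Tg and 9.10, 9.02 and 8.97 in WT. L1-Tg array 2 and WT array 3 met at 8.97, so that the groups just overlapped, and the difference was -0.13 (-0.35 to 0.08, adjusted p = 0.658 in limma). F10, the protease that activates prothrombin, gave 7.28, 7.47 and 7.39 in L1-Tg and 7.80, 7.48 and 7.46 in WT. On this brighter of its 2 probes WT array 1 was the highest and the other arrays of both groups overlapped. The difference was -0.20 (-0.51 to 0.10, adjusted p = 0.645 in limma), while on the dimmer probe the groups were separated. F7, whose gene lies next to F10 and whose product starts coagulation with tissue factor, had a difference of -0.11. F9, deficient in haemophilia B, had one of 0.11. The cofactor F5, which factor Xa needs on membranes, gave 4.93, 4.91 and 4.87 in L1-Tg and 5.16, 4.99 and 5.01 in WT. On this brighter of its 2 probes every L1-Tg array lay below every WT array by a narrow margin, while on the dimmer probe the groups overlapped. The difference on the brighter probe was -0.15 (-0.37 to 0.07, adjusted p = 0.639 in limma).

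All 4 members of the contact system, which starts coagulation on surfaces and releases bradykinin, were lower, between -0.07 and -0.26. Kng1, the kininogen from which bradykinin is cut, gave 9.47, 9.65 and 9.59 in L1-Tg and 9.84, 9.74 and 9.70 in WT. The groups were separated, and the difference was -0.19 (-0.42 to 0.04, adjusted p = 0.596 in limma). Klkb1, the prekallikrein that cuts it, gave 5.38, 5.65 and 5.61 in L1-Tg and 5.95, 5.84 and 5.62 in WT. L1-Tg array 2 lay just above WT array 3, and the difference was -0.26 (-0.57 to 0.05, adjusted p = 0.597 in limma). F11, the gene next to Klkb1, had a difference of -0.07 and F12 one of -0.10. F11 varied more among the WT arrays, with an SD of 0.38, than F12, with an SD of 0.12.

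Fibrinogen is a protein of 3 chains from adjacent genes. Fga, the alpha chain, gave 5.17, 6.26 and 6.15 in L1-Tg and 6.54, 6.40 and 5.94 in WT. L1-Tg array 1 was far below the other arrays, which overlapped, and the difference was -0.43 (-1.20 to 0.34, adjusted p = 0.677 in limma). Without that array it was -0.09. Fgb, the beta chain, gave 9.27, 9.70 and 9.62 in L1-Tg and 9.51, 9.27 and 9.69 in WT, with a difference of 0.04 (-0.35 to 0.43). For the gamma chain, Fgg, the signals were 9.49, 9.88 and 9.70 in L1-Tg and 9.66, 9.49 and 9.70 in WT, with a difference of 0.07 (-0.24 to 0.39). In Fgb both groups covered nearly the same range, with L1-Tg array 2 just above WT array 3. In Fgg L1-Tg array 2, at 9.88, lay further above every WT array, and L1-Tg array 3 met WT array 3 at 9.70. In both genes L1-Tg array 1 and WT array 2 were the lowest of their groups. F13b, which carries the enzyme that crosslinks fibrin, had a difference of -0.04.

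Among genes that act on the clot, Plg, which encodes plasminogen, gave 7.53, 7.75 and 7.56 in L1-Tg and 7.94, 7.73 and 7.75 in WT. L1-Tg array 2 lay among the WT arrays, and the difference was -0.20 (-0.46 to 0.07, adjusted p = 0.622 in limma). Serpinf2, the inhibitor of plasmin, had a difference of -0.19, and Vtn, or vitronectin, which stabilises the inhibitor of plasminogen activators and also binds the terminal complement complex, one of -0.16. Cpb2 encodes the carboxypeptidase that slows clot lysis and gave 6.81, 7.13 and 7.13 in L1-Tg and 6.81, 6.74 and 6.79 in WT. L1-Tg arrays 2 and 3 lay above all WT arrays and array 1 met WT array 1, and the difference was 0.25 (-0.04 to 0.53, unadjusted p = 0.0789, adjusted p = 0.587 in limma). In all 16 alternatives it was above 0, from 0.19 to 0.35.

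More than 1 probe measured 9 members, and the brightest probe stands for the gene above. The dimmer probe of F5 gave 3.28, 3.57 and 3.30 in L1-Tg and 3.68, 3.39 and 3.61 in WT. Its groups overlapped, so the separation of F5 rests on 1 of 2 probes, whereas both probes of Kng1 were separated. The probes of C3, C8a, C8g, F5, F7 and Kng1 had differences of one sign. For Fga they did not. Its dimmer probe gave 3.05, 2.87 and 3.19 in L1-Tg and 3.09, 2.56 and 2.86 in WT, a difference of 0.20 with an SE of 0.16 against -0.43 with an SE of 0.32 for the brighter probe, and on it L1-Tg array 1 was not low. The low signal of L1-Tg array 1 for Fga thus rests on 1 of 2 probes of the same transcript accession. For F10 the dimmer probe, designed for another RefSeq transcript, gave 4.87, 4.77 and 4.65 in L1-Tg and 5.20, 5.84 and 5.06 in WT. Its groups were separated, with a difference of -0.60 (SE 0.21, unadjusted p = 0.028, adjusted p = 0.533 over 29444 probes in limma). The 3 probes of Masp2 ranged from -0.11 to 0.01.

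**Figure D5:**
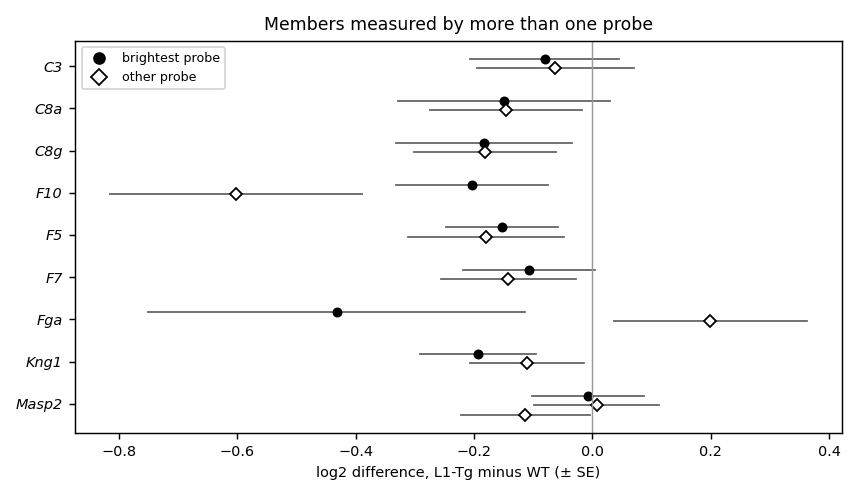
Log2 difference between L1-Tg and WT (horizontal axis) with its SE (bars) for each probe of the 9 members that had more than 1 probe; filled circles are the brightest probe, which stands for the gene, and open diamonds the others. The probes of Fga lie on opposite sides of 0 (-0.43 and 0.20) and those of F10 at -0.20 and -0.60, while those of the other 7 members lie close together.

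The other genes of complement, such as C1q, properdin, receptors and membrane regulators, had a median difference of 0.07 over the 35 of 38 genes on the array that could be tested, with 20 higher and 15 lower. At an unadjusted p under 0.05, 1 was higher and 0 lower, against 4.51% and 4.37% of all genes, and none passed the adjusted threshold. That gene was Cd59b, which blocks the membrane pore, with -1.87, -1.93 and -1.69 in L1-Tg and -2.58, -1.93 and -2.36 in WT. The groups were separated only by a small margin, and the difference was 0.46 (adjusted p = 0.548 in limma). C1qa and C1qb, chains of C1q, which macrophages make, had differences of 0.47 and 0.49 (adjusted p = 0.608 and 0.58 in limma). For C1qa the signals were 3.13, 2.87 and 3.11 in L1-Tg and 2.14, 2.46 and 3.09 in WT, so that WT arrays 1 and 2 were low and WT array 3 lay among the L1-Tg arrays. Kupffer cell markers were low on WT arrays 1 and 2 as well, with a median relative to the WT mean of 0.45, 0.13 and 0.23 in L1-Tg and -0.40, -0.16 and 0.58 in WT. Over the 9 tested markers 8 were higher and none passed an unadjusted p of 0.05, against 4.51% of all genes higher and 4.37% lower. The summed signal of these markers was 1.13 to 1.34 times the WT mean in L1-Tg and 0.720 to 1.32 times in WT. Their part in the values of C1q was not tested. Itgb2, a chain of the complement receptors of leukocytes, had a difference of 0.38. Cpn1, which inactivates anaphylatoxins, had one of -0.33, and C1s1, a protease of C1, one of -0.19. The last 2 had separated groups, and 8.69% of all genes were separated in that direction.

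Over the other genes of coagulation, such as receptors, plasminogen activators and enzymes of vitamin K, the median difference was 0.03 in the 32 of 45 that could be tested, with 19 higher and 13 lower. Of these, 3 were higher and 0 lower at an unadjusted p under 0.05, against 4.51% and 4.37% of all genes, and none passed the adjusted threshold. F13a1, the enzyme chain of factor XIII that macrophages and platelets express, had a difference of 0.64 (adjusted p = 0.514 in limma). It was well above background on 5 of 6 arrays, so it was tested only because all arrays of 1 group passed. WT array 1 was its dimmest, so its difference and its place among the 3 higher genes are description only. Tfpi, which inhibits the start of coagulation and is made by endothelium, had one of 0.37 (adjusted p = 0.527 in limma), and Plgrkt, a plasminogen receptor, one of 0.42 (adjusted p = 0.546 in limma). All 3 had separated groups, and 7.21% of all genes were separated in that direction. Kng2, a close paralog of Kng1 whose RNA the probes may not fully tell apart, gave 7.12, 7.24 and 7.19 in L1-Tg and 7.56, 7.29 and 7.39 in WT. Its groups were separated, as those of Kng1 were, with a difference of -0.23 (adjusted p = 0.578 in limma). Vkorc1, which recycles vitamin K for the clotting factors, had a difference of -0.27, and F2r, a thrombin receptor, one of 0.48.

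The factors that drive these genes in hepatocytes were measured on the same arrays. Of 11 such regulators, 9 (81.8%) were lower and 2 higher, with a median of -0.09, whereas 57.1% of all genes were below 0. Il6ra, the receptor chain through which IL-6 acts, gave 4.70, 4.72 and 4.89 in L1-Tg and 5.22, 4.96 and 5.18 in WT. Every L1-Tg array lay below every WT array, and the difference was -0.35 (-0.62 to -0.07, unadjusted p = 0.0204, adjusted p = 0.501 in limma). Nr1h4, the bile acid receptor FXR, was also separated, with a difference of -0.15, and 8.69% of all genes were separated in that direction. The hepatocyte factor Hnf4a had a difference of -0.13, Cebpa and Cebpb of -0.09 and -0.04, and Stat3 of -0.01, all with overlapping groups. The 2 higher regulators had differences of 0.07 and 0.08, also with overlapping groups.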

How the data were processed

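The members and gene lists were chosen with earlier results of these data known. Liver RNA labelled with Cy3 was hybridised by the authors to 1-colour mouse arrays of 62976 spots (3671 of them controls), and images were read with Agilent Feature Extraction 10.10.1.1. The deposited processed signal is a linear intensity, corrected for background and spatial trend inside each array but left unscaled across arrays. Unscaled intensities of spot and local background (medians) and quality marks for each spot were deposited too, as was a matrix of intensities normalized by the authors with a method not given in the sources used here.

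Non-uniform spots were set to missing, spots of a probe (432 probes had several) were averaged, and log2 intensities minus the array's 75th percentile were used. Of 28685 probes with RefSeq names, 27235 were matched to a symbol. The brightest probe by mean over the arrays stood for a gene. Testing was limited to the 22339 genes detected well above background in every array of one group or both. limma 3.58.1 in R 4.3.3 (lmFit, eBayes, two-sided) was run with jsonlite 2.0.0 and the data.table package (version 1.17.8), with Benjamini-Hochberg adjustment over all genes. An exact permutation test of 3 against 3 arrays cannot go below p = 0.1 and was not used. The number of arrays limits the precision.

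All 37 members could be named. Values on each array were given, in each class, for the 4 members with the smallest p, the 2 with the largest difference among the rest, and C3, Hc, F2, Serpinc1, Plg, Fga, Fgb and Fgg. In the 2 lists of other pathway genes the 6 with the smallest p were named. Values of F5, C1qa, Cd59b, Kng2 and Il6ra on each array, and genes of other lists, were chosen after their values were seen. Alternatives were quantile, array median and no scaling, a normexp correction (offset 50) on median signals, the deposited matrix, no filter on dim probes, detection on each of the 6 arrays, probes averaged per gene, a replicate block, no variance moderation and leaving out each array. Promoters were searched on both strands for motif letters. One regulator is counted in its list and not reported by name here. The pipeline was tested on simulated data.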

Additional observations from a re-analysis of the deposited data

How the results depend on the processing

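No member passed the adjusted threshold in any of the 16 alternatives (smallest adjusted p 0.341, C9 without WT array 3, in limma), and 19 of 37 members kept their sign in all of them (5 higher, 14 lower). The coagulation median of -0.13 was -0.0381 with quantile normalization and -0.021 with array median scaling, where 16 members were below 0. Members lower at an unadjusted p under 0.05 numbered 0 with quantile normalization, array median scaling, no scaling, the deposited matrix, no filter on dim probes and the replicate block (1.41% to 4.28% of all genes), and 2 with normexp, the mean of all probes and no variance moderation (4.28% to 5.12%). Higher ones numbered 2 with quantile normalization (6.08%) and 1 with the deposited matrix (6.03%). Separated members numbered 3 higher and 1 lower with quantile normalization (9.47% and 6.39% of all genes), 0 and 1 with array median scaling (11.2% and 2.56%), 2 and 3 with no scaling (4.93% and 3.39%), 1 and 5 with normexp (6.77% and 9.4%) and 1 and 4 with the deposited matrix (9.88% and 5.41%). C3 turned to 0.0074 with quantile normalization and 0.0282 with array median scaling, Serpinc1 to 0.0266 with quantile normalization, and Hc to 0.0801 with quantile normalization, 0.0605 with array median scaling, 0.0076 with no scaling and 0.0012 with the deposited matrix. The cause was not tested.

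Leaving out 1 array gave 0 to 2 members higher and 0 to 3 lower at an unadjusted p under 0.05 (2.84% to 6% and 2.14% to 6.37% of all genes), and 0 to 3 separated higher (10% to 13.7%) and 3 to 14 lower (11.2% to 17.9%), a criterion that fewer arrays make easier. The 14 lower came without L1-Tg array 2 (16.2% of all genes), and 12 without WT array 3 and 8 without WT array 2 (17.9% and 16.3%). The differences then ranged from -0.184 to 0.0162 for C3, -0.108 to 0.0392 for Hc, -0.375 to 0.0547 for C8b, -0.0638 to 0.172 for Fgb and -0.0239 to 0.172 for Fgg. The labels do not say that the replicate numbers pair pools, so the main fit had no block. Same-numbered arrays did share a column of the slide, and their deviations correlated at -0.157, 0.111 and 0.019. With the replicate block 11 in place of 29 of all genes passed the adjusted threshold. Signal over background did not limit the members, all of which were measured on every array.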

Other observations

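Acute phase genes outside the complement and coagulation members had a median difference of 0.10 over 22 genes, 16 of them higher. At an unadjusted p under 0.05, 1 was higher, against 4.51% of all genes. That gene, Lcn2, which encodes the iron-siderophore-binding lipocalin 2, gave 3.67, 3.56 and 3.12 in L1-Tg and 0.94, 2.08 and 1.96 in WT. Every L1-Tg array lay above every WT array, and the difference was 1.79 (SE 0.33, adjusted p = 0.262 in limma). Saa1, a serum amyloid A, gave 5.97, 7.84 and 6.41 in L1-Tg and 5.80, 6.89 and 6.07 in WT, so that the groups overlapped.

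Cfd, which encodes the complement protease factor D and is made chiefly by fat cells, gave -3.47, 0.80 and -4.00 in L1-Tg and 1.35, -3.83 and -1.08 in WT. The arrays of both groups were spread over the same wide range, and the difference was -1.04 (-5.12 to 3.05). Apoa1, the main protein of high-density lipoprotein, was the hepatocyte marker with the lowest difference, -0.49 (adjusted p = 0.531 in limma), with separated groups. These genes were chosen after their values were seen.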
